A study of Homo sapiens with 36 samples.

Results

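The D-type cyclins, the kinases they activate and the inhibitors of those kinases were followed across 4 cell lines from human non-small cell lung cancer given an anti-EGFR aptamer. The set has 10 genes, found by name among 66366 genes in the deposited tables: the cyclins CCND1, CCND2 and CCND3, the kinases CDK4 and CDK6, the CIP/KIP inhibitors CDKN1B (p27) and CDKN1C (p57), and the INK4 inhibitors CDKN2B (p15), CDKN2C (p18) and CDKN2D (p19). All 10 were listed, although CCND2 was at or near 0 in every library. The lines were H3255 (EGFR L858R), H1975 (EGFR L858R/T790M), H820 (EGFR Ex19del/T790M) and A549 (wild-type EGFR). Each was treated for 24 h with MinE07, an RNA aptamer that binds EGFR, at 3 µM, with an extended form of the control aptamer C36 at the same concentration, or with vehicle, which was DPBS with magnesium. There were 3 libraries per group and 36 in all. Every group was treated in medium with 1% serum. A549 was kept in DMEM and H3255, H1975 and H820 in RPMI, and the medium cannot be told apart from the line in any comparison with A549. Each genotype was represented by 1 line, and genotype cannot be told apart from the rest of a line's background.

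D-type cyclins bind CDK4 and CDK6 in response to growth signals, and the active kinases phosphorylate the retinoblastoma protein, which frees E2F factors to switch on genes for entry into S phase. INK4 proteins bind CDK4 and CDK6 and block the binding of cyclin. CIP/KIP proteins act on cyclin-CDK complexes more widely and inhibit CDK2 in particular. In EGFR-driven lung cancer cells, EGFR signalling through MAP kinase and PI3 kinase is known to sustain cyclin D1 and to keep p27 low.

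Expression was given as FPKM, fragments scaled by transcript length and by the mapped fragments of the library, which puts levels of different genes on 1 scale per length. Levels set between lines also depend on how libraries are scaled, most in the pairs with H1975, as given beside the vehicle levels. Relative depth, read from the steps between low values, ran from 0.590 to 1.385 of the median library, and absolute depth is unknown. All 5 epithelial markers (EPCAM, CDH1, KRT8, KRT18 and KRT19) averaged at least 1 FPKM in every line, and no leukocyte or endothelial marker of 3 each did. Of 3 fibroblast markers, 2 did in H1975 (the highest at 5.57 FPKM), 1 in H3255 (2.74 FPKM) and 0 in H820 and A549, and their part in the results was not tested. Of 3 lung lineage markers, all 3 did in H3255, but only 1 each in H1975 and H820 and 0 in A549. In 2 of the H820 MinE07 libraries, replicates 1 and 2, all 4 abundant mitochondrial genes examined were listed at 0. At least 1 of the 4 was also at 0 in 2 H3255 MinE07 libraries, 1 H3255 C36 library and 2 A549 vehicle libraries, and their part in the results was not tested beyond leaving out each library in turn. In bulk RNA, fewer cells in a given state and less RNA per cell cannot be told apart. The series record calls the experiments biologically independent, and p-values measure the spread between these libraries.

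Shown are the promoters of the members that changed with MinE07 in at least 1 line and had a single start in RefSeq. They belong to a kinase gene (CDK4, called in H3255 only), a CIP/KIP gene (CDKN1B) and an INK4 gene (CDKN2D). CDKN1B and CDKN2D were called in both L858R lines. Each is the 250 bases before the start on GRCh38.p14, 5′ to 3′ on the gene's strand, with capitals marking motif matches. CDK4 is at chr12:57752311-57752560 (minus strand), CDKN1B at chr12:12717118-12717367 (plus strand) and CDKN2D at chr19:10568980-10569229 (minus strand). The CDK4 and CDKN1B windows lie inside the gene spans given below, which come from GENCODE.
CDK4: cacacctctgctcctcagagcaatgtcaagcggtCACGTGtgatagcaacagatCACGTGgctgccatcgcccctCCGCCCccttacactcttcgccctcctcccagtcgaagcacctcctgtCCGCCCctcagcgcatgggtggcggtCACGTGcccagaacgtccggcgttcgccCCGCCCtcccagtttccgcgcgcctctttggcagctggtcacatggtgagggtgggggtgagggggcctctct
CDKN1B: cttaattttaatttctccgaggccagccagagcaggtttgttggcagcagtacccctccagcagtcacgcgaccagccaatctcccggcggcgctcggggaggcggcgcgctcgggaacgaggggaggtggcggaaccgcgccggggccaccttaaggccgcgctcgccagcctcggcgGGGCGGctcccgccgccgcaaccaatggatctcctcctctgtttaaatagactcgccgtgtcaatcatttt
CDKN2D: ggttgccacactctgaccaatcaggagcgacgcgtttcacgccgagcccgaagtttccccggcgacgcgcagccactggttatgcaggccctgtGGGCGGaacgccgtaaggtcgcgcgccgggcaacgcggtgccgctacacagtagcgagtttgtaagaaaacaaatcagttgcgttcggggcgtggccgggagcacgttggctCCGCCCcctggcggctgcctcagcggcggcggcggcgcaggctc
The motifs were searched on both strands and were chosen after the expression values were seen. They were an E2F motif (TTTCCCGC or TTTGGCGC), an ETS motif (CCGGAAG), a forkhead motif (TGTTTAC), an E-box (CACGTG) and a GC box (GGGCGG). CDK4 held 3 E-boxes and 3 GC boxes, CDKN1B held 1 GC box and CDKN2D held 2 GC boxes. The E2F, ETS and forkhead letters were in none of the 3 windows. Among 35116 RefSeq promoter windows of that length, 6.34% held the E-box, 42.6% the GC box, 8.52% the ETS motif, 2.98% the forkhead motif and 1.93% the E2F motif. A match is a run of letters and says nothing about binding.

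Before any aptamer, the lines differed widely in which D-type cyclin they expressed. CCND1 (cyclin D1, chr11:69641087-69654474) was highest in H3255, with vehicle libraries at 209, 214 and 213 FPKM. A549 followed at 89.0, 90.7 and 92.1, H1975 at 60.8, 62.5 and 60.8, and H820 at 8.26, 7.74 and 7.20. The H820 libraries lay far below all others, and no 2 lines overlapped. Neighbours in that order differed by 2.34-fold, 1.48-fold and 7.93-fold, with adjusted p of 6.85e-24, 3.44e-15 and 6.32e-33 in limma. Such differences between lines were the rule, among all 14572 genes tested. Between vehicle groups 86.1% were called for H3255 and H1975, 86.3% for H3255 and H820, 87.1% for H3255 and A549, 83.7% for H1975 and H820, 84.6% for H1975 and A549, and 85.2% for H820 and A549.

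CCND3 (cyclin D3, chr6:41934933-42050357) was ordered differently. It was highest in A549, with vehicle libraries at 129, 121 and 124 FPKM, 4.21 times the mean of H3255, which came next at 29.6 ± 0.887 FPKM (SD, n = 3). H820 stood at 23.1 ± 1.29 and H1975 at 21.2 ± 1.35. The H820 and H1975 libraries overlapped, and their difference (adjusted p = 0.00839) was lost without H1975 vehicle replicate 2 (adjusted p = 0.107) or H820 vehicle replicate 2 (adjusted p = 0.1). CCND2 (cyclin D2, chr12:4273772-4305350) was listed at 0 in 13 of 36 libraries and did not exceed 0.0182 FPKM in any, so it was not tested.

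CCND1 therefore made up 87.7% ± 0.260 (SD, n = 3) of the summed D-type cyclin FPKM in H3255 vehicle libraries and 74.3% ± 1.49 in H1975. It made up 42.1% ± 1.13 in A549 and 25.1% ± 1.44 in H820, where CCND3 was the more abundant of the pair.

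**Figure D1:**
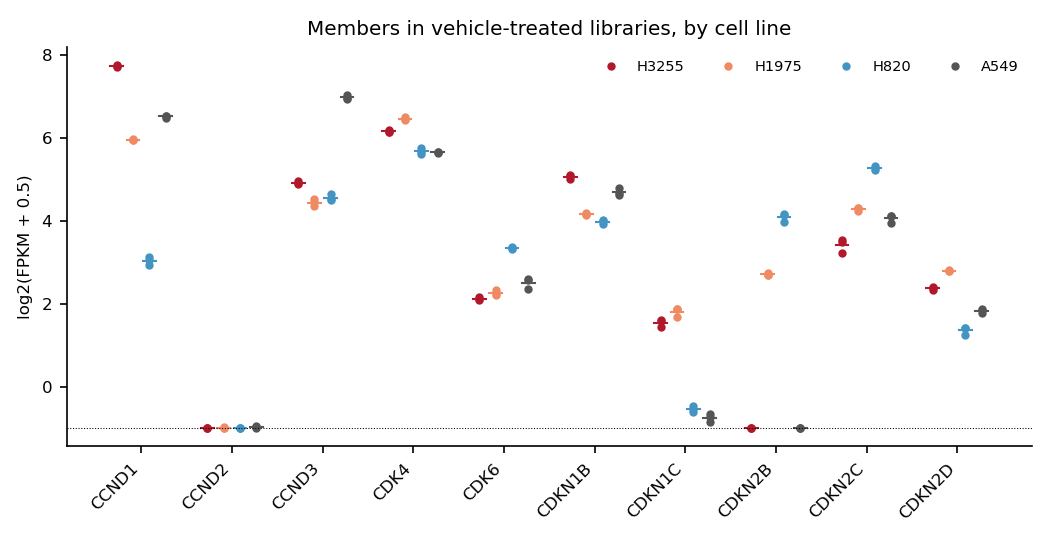
Level of each of the 10 members in the 3 vehicle libraries of each line, as log2(FPKM + 0.5). Points are libraries, bars the mean of 3, and the dotted line marks a value of 0 FPKM. CCND1 spans from a mean of 7.73 FPKM in H820 to 212 in H3255, and CDKN2B is at or near 0 in H3255 and A549.

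The kinase levels were less spread. CDK4 (chr12:57747727-57756013) had vehicle means of 87.0 ± 2.21 FPKM in H1975, 70.4 ± 1.14 in H3255, 50.5 ± 2.56 in H820 and 49.5 ± 0.789 in A549. H820 and A549 overlapped and were not called different (adjusted p = 0.454). CDK6 (chr7:92604921-92836594) was highest in H820 at 9.65 ± 0.228 FPKM, 1.86 times A549 at 5.20 ± 0.540. H1975 followed at 4.33 ± 0.215 and H3255 at 3.86 ± 0.108. The last difference (adjusted p = 0.0104) was lost without H1975 vehicle replicate 2 (adjusted p = 0.0731), and its sign turned when libraries were rescaled by medians of ratios (adjusted p = 0.553). CDK6 was 16.1% ± 0.985 of the summed CDK4 and CDK6 FPKM in H820, 9.51% ± 0.928 in A549, 5.20% ± 0.106 in H3255 and 4.74% ± 0.244 in H1975.

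Among the inhibitors, CDKN2B separated the lines most sharply. CDKN2B (p15, an INK4 inhibitor, chr9:22002903-22009363) was listed at 0 in all 9 H3255 libraries and in 8 of 9 A549 libraries, where the remaining one held 0.00519 FPKM. In H820 it ran from 15.3 to 18.9 FPKM over 9 libraries and in H1975 from 5.52 to 6.53. The vehicle mean of H820 was 2.73 times that of H1975 (adjusted p = 8.91e-22). The neighbouring antisense gene CDKN2B-AS1 was also listed at 0 in all 9 H3255 libraries but ran from 0.911 to 1.28 FPKM in A549.

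CDKN1C (p57, chr11:2883213-2885773) averaged 3.00 ± 0.249 FPKM in H1975 and 2.40 ± 0.182 in H3255 vehicle libraries, but 0.194 ± 0.0367 in H820 and 0.0993 ± 0.0405 in A549. CDKN2C (p18, chr1:50960745-50974633) was highest in H820 at 38.0 ± 1.05 FPKM, 2.01 times H1975, and lowest in H3255 at 10.2 ± 1.16. CDKN2D (p19, chr19:10566462-10569059) ran in the order H1975, H3255, A549 and H820, from 6.44 ± 0.0526 to 2.08 ± 0.165 FPKM. CDKN1B (p27, chr12:12715058-12722371) was highest in H3255 at 32.8 ± 1.08 FPKM and lowest in H820 at 15.3 ± 0.562. Rescaling moved the median gene by 0.15, -0.15 and -0.18 (log2) in the pairs of lines with H1975 and by less than 0.1 in the others. Under it the differences between H3255 and H1975 in CDKN1C (adjusted p = 0.155), between H1975 and H820 in CDKN1B (adjusted p = 0.926) and between H1975 and A549 in CDKN2C (adjusted p = 0.806) were not called.

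MinE07 was compared with C36 to ask which members respond to the EGFR aptamer beyond what the control aptamer brings about. Members were called in the L858R lines and 0 were called in the other lines, at an adjusted p under 0.05 over all genes tested in limma. In H3255, 8 members passed the filter of a mean of 1 FPKM, of which 2 rose (CDK6 and CDKN1B) and 5 fell (CCND1, CCND3, CDK4, CDKN1C and CDKN2D). Of all 13429 genes tested there, 36.7% were called, 16.6% higher and 20% lower, and the median change of the members was -0.21 on the log2 scale against -0.01 for all genes. In H1975, 9 members were tested, 1 rose (CDKN1B) and 3 fell (CCND1, CCND3 and CDKN2D), where 19.9% of 14183 genes were called, 8.88% higher and 11.1% lower. The median member change was -0.05 there against -0.01 for all genes. In H820, 0 of 8 were called in limma, where 0.0364% of genes were called. An unadjusted p under 0.05 was found there for 2 members and for 1396 of all 13753 genes. In A549, 0 of 7 were called, where 0% of genes were called. There 0 members had an unadjusted p under 0.05, beside 1455 of all 13425 genes. With all 36 libraries in 1 fit the counts were 1 in H820 and 0 in A549. The share of all genes called in that fit is not given here, so these counts have no share beside them.

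**Figure D2:**
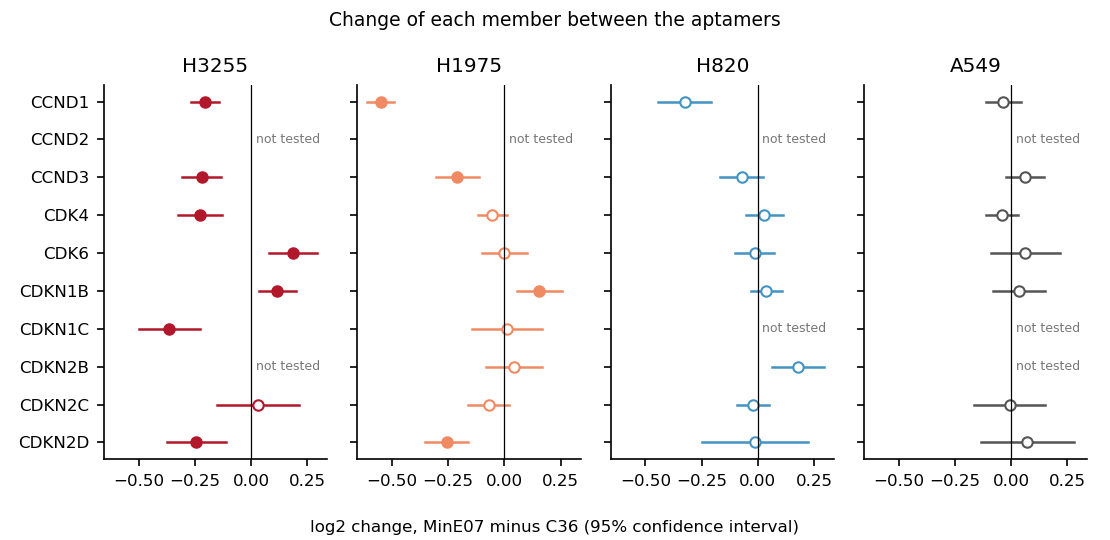
Change of each member between MinE07 and C36 in each line, as the difference of means of log2(FPKM + 0.5) with its 95% interval from limma. Filled points were called at an adjusted p under 0.05. CCND1 lies lowest in H1975 at -0.55, and no member is called in H820 or A549.

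CCND1 showed the largest fall of any member in H1975. The C36 libraries held 67.4, 68.8 and 66.8 FPKM and the MinE07 libraries 46.3, 46.5 and 45.3. All MinE07 libraries lay below all C36 and all vehicle libraries, and the mean was 32.0% lower than with C36. The change was -0.55 ± 0.026 (SE) on the log2(FPKM + 0.5) scale, with an adjusted p of 1.25e-05, and it was -0.41 against vehicle (adjusted p = 3.89e-05). C36 itself was 0.14 above vehicle (adjusted p = 0.0629), which was called with 1 fit of all libraries (adjusted p = 0.0309).

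In H3255, CCND1 stood at 216, 216 and 212 FPKM with C36 and at 183, 187 and 189 with MinE07. The MinE07 libraries were again below every C36 and vehicle library, but the fall was smaller, at 13.3% of the C36 mean. It was -0.20 ± 0.027 (SE, log2; adjusted p = 0.000264), and -0.18 against vehicle (adjusted p = 0.00049).

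In H820, CCND1 was called higher with the control aptamer than with vehicle, and MinE07 was not called different from vehicle. The C36 libraries held 9.44, 9.84 and 9.09 FPKM, the MinE07 libraries 7.08, 7.78 and 7.48, and the vehicle libraries 8.26, 7.74 and 7.20. The C36 libraries lay above both other groups, which overlapped. C36 was 0.28 above vehicle (log2; adjusted p = 0.026), a comparison in which 2.85% of genes were called and 1.56% were called higher, and MinE07 was -0.05 from vehicle (95% interval -0.17 to 0.07). That call was lost without C36 replicate 1 (adjusted p = 0.0978), C36 replicate 2 (0.101), vehicle replicate 2 (0.0888) or vehicle replicate 3 (0.0657), with no filter (0.14), without trend and robust moderation (0.0507) and with the replicate block (0.0516). MinE07 against C36 was -0.33 (95% interval -0.44 to -0.21) and was not called (adjusted p = 0.127), whereas with 1 spread estimated over all 36 libraries it was (adjusted p = 2.86e-06). Without MinE07 replicates 1 and 2, the libraries with mitochondrial genes at 0, it was -0.32 (adjusted p = 0.259), with the remaining MinE07 library taken to vary like the other groups, and 0 of 8 members were called.

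In A549, CCND1 stood at 92.9, 90.7 and 91.4 FPKM with C36 and at 92.2, 87.7 and 88.7 with MinE07. The groups overlapped, and the difference was -0.03 (95% interval -0.11 to 0.04; adjusted p = 0.739).

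**Figure D3:**
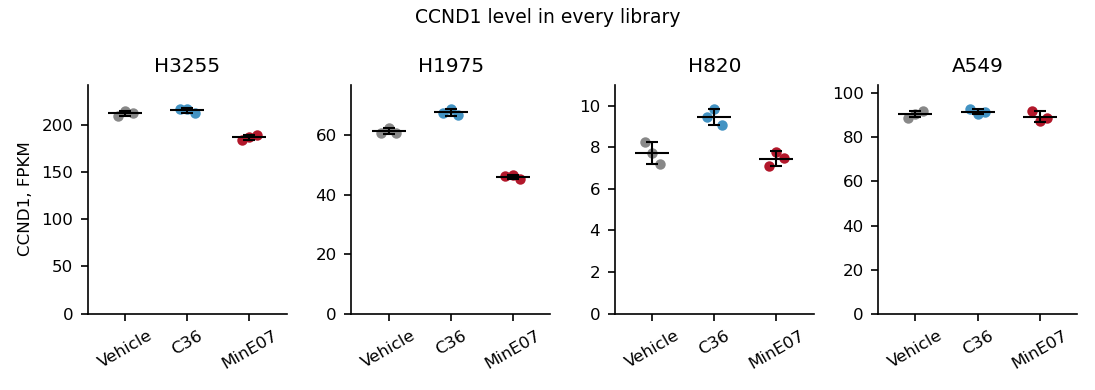
CCND1 in every library, in FPKM, by treatment and line, each panel with its own axis from 0. Points are libraries, bars the mean and SD of 3. MinE07 libraries lie below the other groups in H3255 and H1975, C36 libraries lie above them in H820, and the groups overlap in A549.

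The CCND1 change was tested between lines by interaction terms in a fit of all 36 libraries. The MinE07 minus C36 difference lay lower in H1975 than in H3255 by 0.35 (log2; adjusted p = 6.49e-06), than in H820 by 0.23 (adjusted p = 0.00393) and than in A549 by 0.52 (adjusted p = 4.91e-08). It also lay lower in H3255 than in A549 by 0.17 (adjusted p = 0.0105) and in H820 than in A549 by 0.29 (adjusted p = 0.00652). In H820 that difference goes with C36 lying above vehicle, while MinE07 was -0.05 from vehicle. H3255 and H820 were not called different, with a difference of 0.12 (95% interval 0.02 to 0.22; adjusted p = 0.0881). That pair was called without H820 C36 replicate 3 (adjusted p = 0.0459) or H820 MinE07 replicate 2 (adjusted p = 0.0396). Among all genes, differences were called for 15.2% between H3255 and H1975, 18.9% between H3255 and H820, 25.2% between H3255 and A549, 7.32% between H1975 and H820, 12.6% between H1975 and A549 and 0.323% between H820 and A549.

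CCND3 fell in both L858R lines. In H3255 it stood at 29.7, 29.7 and 30.1 FPKM with C36 and at 24.7, 24.9 and 27.1 with MinE07, without overlap. The change was -0.22 ± 0.039 (SE, log2; adjusted p = 0.0016). In H1975 it stood at 21.9, 21.8 and 22.1 with C36 and at 19.0, 18.5 and 19.2 with MinE07, also without overlap, and the change was -0.21 ± 0.042 (adjusted p = 0.00781). Against vehicle it was -0.16 in H1975 (adjusted p = 0.0236), a call lost without MinE07 replicate 1 (0.0549), MinE07 replicate 2 (0.0735) or vehicle replicate 3 (0.0635), and with no filter (0.0901). In H820 CCND3 was -0.07 (95% interval -0.17 to 0.02) and in A549 0.06 (95% interval -0.03 to 0.15), neither called. Compared with the change in A549, the difference was -0.28 for H3255 (adjusted p = 0.000567). For H1975 it was -0.27 (adjusted p = 0.00205). In A549, C36 was -0.14 from vehicle for CCND3 (adjusted p = 0.0665), which was called after rescaling (0.0327) and in 1 fit of all libraries (0.0213), in a comparison with 6% of genes called.

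The summed D-type cyclin FPKM moved from 245 with C36 to 212 with MinE07 in H3255, from 89.6 to 64.9 in H1975 and from 32.7 to 29.5 in H820. In these 3 lines the groups did not overlap, with an exact two-sided permutation p of 0.1, the smallest that 3 against 3 libraries allow. In A549 it was 205 and 208 (exact permutation p = 0.4). With vehicle the mean sum was 242 in H3255 and 82.5 in H1975, and all MinE07 libraries lay below vehicle there. In H820 the vehicle libraries, at 30.9, 32.2 and 29.2, overlapped those with MinE07. The vehicle mean in A549 was 215. CCND1 made up 75.5% ± 0.397 of that sum with C36 and 70.9% ± 0.622 with MinE07 in H1975. The shares were 28.9% ± 1.46 and 25.2% ± 1.03 in H820, and 44.7% ± 0.623 and 43.1% ± 0.860 in A549. In these 3 lines the groups did not overlap (exact two-sided permutation p = 0.1 each), and in H3255 they did, at 87.8% ± 0.201 and 87.9% ± 0.432 (p = 0.6 by the same exact permutation test). The vehicle share was 74.3% ± 1.49 in H1975, where all MinE07 libraries lay below it. It was 25.1% ± 1.44 in H820 and 42.1% ± 1.13 in A549, and in both the vehicle and MinE07 libraries overlapped.

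**Figure D4:**
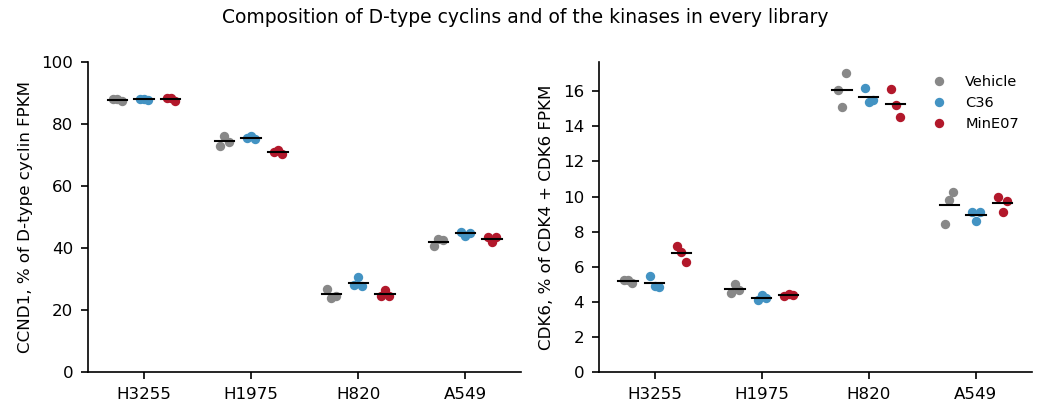
CCND1 as a percent of summed D-type cyclin FPKM, and CDK6 as a percent of summed CDK4 and CDK6 FPKM, per library by treatment and line, with bars at the mean of 3. The CCND1 share is lower with MinE07 than with C36 in H1975, H820 and A549 and overlaps in H3255, where the CDK6 share is higher. In H820 and A549 the CCND1 share with MinE07 overlaps that with vehicle, and in H1975 it lies below vehicle.

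The kinases moved in opposite directions in H3255 and were not called elsewhere. CDK4 stood at 70.7, 70.4 and 72.8 FPKM with C36 and at 56.6, 61.6 and 64.6 with MinE07. Every MinE07 library was below every C36 and vehicle library, and the change was -0.23 ± 0.044 (SE, log2; adjusted p = 0.00255). CDK6 stood at 4.10, 3.66 and 3.72 with C36 and at 4.39, 4.52 and 4.34 with MinE07. Here every MinE07 library was above, by 0.19 ± 0.048 (adjusted p = 0.0118). Against vehicle the changes were -0.21 for CDK4 (adjusted p = 0.00375) and 0.17 for CDK6 (adjusted p = 0.0162). The CDK6 call against C36 was lost without C36 replicate 2 (adjusted p = 0.0501), and that against vehicle without MinE07 replicate 2 (0.0584) or vehicle replicate 3 (0.0542). The CDK6 share of the kinase sum was 5.09% ± 0.331 with C36 and 6.78% ± 0.457 with MinE07, without overlap (exact two-sided permutation p = 0.1).

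In H1975, CDK4 changed by -0.05 (95% interval -0.12 to 0.01) and CDK6 by 0.00 (95% interval -0.10 to 0.10). In H820 and A549 the CDK4 changes were 0.03 and -0.04 and the CDK6 changes -0.01 and 0.06, none called. The CDK4 change in H3255 differed from H1975 by -0.17 (adjusted p = 0.0161), from H820 by -0.26 (adjusted p = 0.00042) and from A549 by -0.19 (adjusted p = 0.00605). The first of these was lost without H3255 MinE07 replicate 1 (adjusted p = 0.0697). For CDK6 the differences from H1975 (0.19, adjusted p = 0.0861) and from H820 (0.20, adjusted p = 0.0534) were not called, and both were without H3255 C36 replicate 1 (adjusted p = 0.0374 and 0.0231), the latter also without H820 MinE07 replicate 1 (0.0408). Exons of genes on the other strand overlap those of CDK4 (TSPAN31), CCND1 (LTO1), CCND3 (AL513008.1) and CDK6 (AC002454.1). The kit was stranded, but whether the authors' quantification used strand is not given in the sources used here.

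Of the CIP/KIP inhibitors, CDKN1B rose by small amounts in the L858R lines. In H3255 it stood at 32.1, 31.5 and 30.5 FPKM with C36 and at 32.8, 34.4 and 35.1 with MinE07. The groups did not overlap, but the vehicle libraries at 31.6, 33.8 and 33.0 overlapped both. The rise against C36 was 0.12 ± 0.037 (SE, log2; adjusted p = 0.0303), and against vehicle it was 0.06 (adjusted p = 0.27). The call was lost without C36 replicate 2 (0.0655), C36 replicate 3 (0.111), MinE07 replicate 2 (0.0863) or MinE07 replicate 3 (0.0866), and with no filter on low values (0.0917). In H1975 it stood at 17.1, 16.9 and 16.1 with C36 and at 19.9, 17.6 and 18.4 with MinE07, a rise of 0.15 ± 0.045 (adjusted p = 0.0371) that was 0.09 against vehicle (adjusted p = 0.161). That call was lost without any 1 of 7 libraries, with adjusted p from 0.0503 to 0.121. They were all 3 C36 libraries, MinE07 replicates 1 and 3, and vehicle replicates 2 and 3. It was also lost with no filter (0.13) and without trend and robust moderation (0.0562). The changes in H820 (0.04) and A549 (0.03) were not called, and no pair of lines was called different.

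CDKN1C fell in H3255 from 2.49, 2.59 and 2.57 FPKM with C36 to 1.83, 2.02 and 1.77 with MinE07. All MinE07 libraries lay below all C36 and vehicle libraries. The change was -0.36 ± 0.061 (SE, log2; adjusted p = 0.00106), and -0.29 against vehicle (adjusted p = 0.00364). The tables hold a further entry of CDKN1C under a numbered name, whose means were 2.41 and 1.72 FPKM in the same groups, so fragments may be divided between the entries and the level of either is uncertain. In H1975 the change was 0.01 (95% interval -0.15 to 0.17), and in H820 and A549 the gene was below the filter. The change in H3255 differed from that in H1975 by -0.37 (adjusted p = 0.00404), a call lost with a pseudocount of 0.1 (adjusted p = 0.106). The fitted differences from H820 (-0.57) and A549 (-0.26) are values only, since CDKN1C was below the filter in both lines, at means of 0.257 and 0.0851 FPKM, and entered that fit through H3255 and H1975. These levels lie under the pseudocount of 0.5, and the H820 value ran from -0.84 to -0.43 over the other settings. The adjusted p for A549, 0.0352, was above 0.05 with a pseudocount of 0.1 (0.799), with no filter (0.0821), with the replicate block (0.0696) and without any 1 of 7 libraries, with adjusted p from 0.062 to 0.0976. They were H3255 C36 replicates 2 and 3, H3255 MinE07 replicates 1 and 3, A549 C36 replicate 3 and A549 MinE07 replicates 2 and 3. With the entries summed it was 0.0909.

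**Figure D5:**
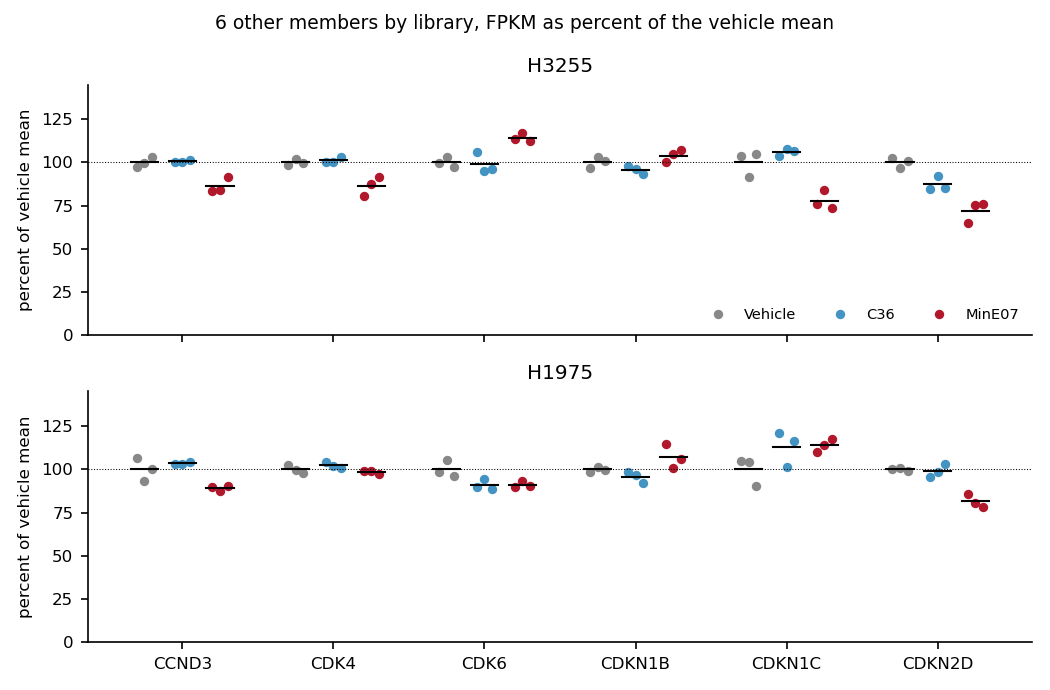
The 6 members other than CCND1 that were called in H3255 or H1975, in FPKM as a percent of the vehicle mean of the line. Points are libraries and bars the mean of 3. CDK4 is lower with MinE07 in H3255, and CCND3 and CDKN2D are lower with MinE07 in both lines.

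Of the INK4 inhibitors, CDKN2D fell in both L858R lines. In H3255 it stood at 3.98, 4.32 and 4.01 FPKM with C36 and at 3.05, 3.55 and 3.58 with MinE07, a change of -0.24 ± 0.059 (SE, log2; adjusted p = 0.00872). The vehicle libraries, at 4.81, 4.56 and 4.73, lay above both, and MinE07 was -0.42 from vehicle (adjusted p = 0.000341). C36 was -0.18 from vehicle without a call (adjusted p = 0.198). In H1975 the libraries held 6.17, 6.33 and 6.65 with C36 and 5.54, 5.19 and 5.05 with MinE07. Here C36 and vehicle overlapped and MinE07 lay below both, by -0.26 ± 0.043 against C36 (adjusted p = 0.00297) and -0.27 against vehicle (adjusted p = 0.00215).

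For CDKN2D the difference between the L858R lines was 0.01 (95% interval -0.24 to 0.26). The differences from A549, -0.32 for H3255 (adjusted p = 0.056) and -0.33 for H1975 (adjusted p = 0.0729), were not called. The former was called without A549 C36 replicate 2 (0.0348) or A549 MinE07 replicate 3 (0.0187), with a pseudocount of 1 (0.048), after rescaling (0.0348) and with the replicate block (0.0229). The latter was called without A549 MinE07 replicate 3 (0.0301) and with the block (0.0341). CDKN2D in H820 changed by -0.01 and in A549 by 0.07, with 95% intervals of -0.25 to 0.22 and -0.14 to 0.28.

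CDKN2C was not called in any line. Its MinE07 minus C36 changes were 0.03 and -0.07 in H3255 and H1975, and -0.02 and -0.01 in H820 and A549. CDKN2B in H820 stood at 16.5, 17.3 and 15.5 FPKM with C36 and at 18.9, 18.1 and 18.9 with MinE07. The groups did not overlap, but the change of 0.18 (95% interval 0.06 to 0.29) was not called (adjusted p = 0.331). In H1975 the CDKN2B change was 0.04 (adjusted p = 0.639).

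Set against vehicle, which shares its MinE07 libraries with the comparison above, MinE07 gave 1 member higher and 5 lower of 8 in H3255, where 38.6% of genes were called, 21.4% higher and 17.2% lower. It gave 0 higher and 3 lower of 9 in H1975 (23.7% of genes called, 10.8% higher and 12.9% lower). In H820 and A549 it gave 0 calls in limma (3.02% and 0.216% of genes called). There 2 and 0 members had an unadjusted p under 0.05, beside 2570 of 13753 and 1865 of 13425 genes. C36 against vehicle gave 0 calls in H3255 (0.305% of genes), H1975 (0.233%) and A549 (6%), and 1 in H820 (2.85%). In H3255, H1975 and A549, 1, 2 and 1 members had an unadjusted p under 0.05 in limma for C36 against vehicle. Of all genes, 2136 of 13429, 2032 of 14183 and 3157 of 13425 were under that threshold.

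The partners of the pathway were described by counts. Of 17 genes for RB family members, E2F and DP factors, cyclin E, CDK2, CDC25A and the CDK-activating kinase, 2 rose and 7 fell between C36 and MinE07 in H3255, where 36.7% of all genes were called. Their median change was -0.13, against -0.01 for all genes. In H1975 1 rose and 6 fell, where 19.9% of all genes were called, and the median was -0.11 against -0.01. In H820, 0 of 16 tested and in A549 0 of 17 were called, with 3 and 1 at an unadjusted p under 0.05. Of all genes, 1396 of 13753 and 1455 of 13425 were under that threshold. RBL1 (p107, an RB family member) had the largest fall in H3255, from 8.31 ± 0.165 to 6.99 ± 0.418 FPKM (-0.24, adjusted p = 0.00171). CDC25A, a phosphatase that activates CDK2, had the largest in H1975, from 4.70 ± 0.315 to 3.39 ± 0.207 FPKM (-0.42, adjusted p = 0.000914). TFDP2, a DP partner of E2F factors, had the largest rise in both, by 0.17 in H3255 (adjusted p = 0.0457) and 0.20 in H1975 (adjusted p = 0.00865). The former was lost without any 1 of 8 of the 9 libraries, all but MinE07 replicate 1, with adjusted p from 0.0525 to 0.162. It was also lost with no filter (0.156), after rescaling (0.0517) and without trend and robust moderation (0.0641). CDK2, the kinase that CIP/KIP proteins inhibit, is named after its values were seen and fell by 0.22 in each L858R line. In H820 the CDK2 mean with MinE07 was 6.72% below C36, without overlap but not called, and in A549 the groups overlapped.

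A list of 12 genes was drawn up as regulators of D-type cyclin or p27 transcription and stability. It also held CDC37, a chaperone of CDK4. In H3255, 11 were tested, of which 3 rose and 4 fell, beside 36.7% of all genes called. In H1975, 11 were tested, of which 2 rose and 3 fell, beside 19.9%. The medians were -0.05 and -0.03, and -0.01 for all genes in both lines. In H1975 that count of 5 was 2 without C36 replicate 2 or without MinE07 replicate 3. In H820 (12 tested) and A549 (11 tested) 0 were called, with 1 and 2 at an unadjusted p under 0.05. Of all genes, 1396 of 13753 and 1455 of 13425 were under that threshold. CKS1B, which helps SKP2 mark p27 for degradation, had the largest fall in both lines. It went from 79.6 ± 3.55 to 61.8 ± 3.71 FPKM in H3255 (-0.36, adjusted p = 0.000408) and from 96.9 ± 4.17 to 79.3 ± 1.73 in H1975 (-0.29, adjusted p = 0.0012). FOXO4, a forkhead factor of the family that activates CDKN1B, had the largest rise. It went from 1.27 ± 0.0397 to 1.74 ± 0.0506 FPKM in H3255 (0.34, adjusted p = 0.00109) and from 3.78 ± 0.260 to 4.51 ± 0.0336 in H1975 (0.23, adjusted p = 0.0184). The H1975 call was lost without C36 replicate 2 (0.074), C36 replicate 3 (0.0595), MinE07 replicate 2 (0.052) or MinE07 replicate 3 (0.0507), and with no filter (0.0717).

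The genes whose pattern over the 12 group means was most like that of CCND1, among 14572 genes, were SSRP1 (Pearson r = 0.996), a further entry of PNP (r = 0.995) and ETV4 (r = 0.995). These correlations are descriptions, and the 12 points share 4 lines, whose levels differ far more than the treatments. ETV4, an ETS factor, stood at 27.5 ± 0.790 FPKM with C36 and 21.5 ± 1.24 with MinE07 in H3255, and at 8.52 ± 0.187 and 5.48 ± 0.230 in H1975. In H820 it stood at 1.38 ± 0.265 with vehicle, 0.941 ± 0.0459 with C36 and 0.827 ± 0.102 with MinE07, so that C36 lay below vehicle, where CCND1 lay above it. SSRP1, a histone chaperone subunit, stood at 106.8 ± 0.798 and 91.3 ± 1.19 in H3255 and at 62.0 ± 1.35 and 56.5 ± 0.426 in H1975.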

How the data were processed

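Poly-A RNA of 36 libraries (4 lines, 3 treatments, 3 libraries per group) was sequenced with a stranded kit as pairs of 100 bases, per the labels. The authors deposited FPKM per gene. Per the submitters' processing notes, the tools were HISAT2 and Cuffdiff and the build GRCh38.p12 (hg38), with no versions given. There are no counts, so no count model was used. Members were found by name, and 0 columns belonged to samples of other series. Coordinates come from GENCODE on GRCh38 and promoters from RefSeq.

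Values were fitted as log2(FPKM + 0.5), which understates changes of low genes, in limma 3.58.1 (R 4.3.3), with intensity trend and robust moderation. Genes with a mean of at least 1 FPKM over a fit's libraries were tested. Changes within a line used its 9 libraries, and differences between lines used all 36. Calls were two-sided at a Benjamini-Hochberg adjusted p under 0.05 over all genes tested. Shares of summed FPKM were compared by exact permutation. The code was tested on simulated data. Named by rule were all 10 members, the called gene of each pathway list with the largest change per line and direction, and the 3 genes most like CCND1. CDK2 was named outside this rule, after its values were seen. The members and lists were chosen with earlier results of these data known. Replicate numbers were not treated as pairs, since in 0 of 12 comparisons did every same-numbered pair correlate over 0.1. Alternatives were pseudocounts of 0.1 and 1, no filter, rescaling by medians of ratios, a replicate block, 1 fit of all libraries, no trend or robust moderation, and leaving out each library. After seeing the data, summing the CDKN1C entries and leaving out H820 MinE07 replicates 1 and 2 were added.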

Additional observations from a re-analysis of the deposited data

Results flagged for a closer look

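For 4 members the MinE07 minus C36 change differed between lines by a test of the difference, at an adjusted p under 0.05 in limma over all genes. The values are log2 differences of the change. For CCND1 they were 0.35 for H3255 minus H1975, -0.17 for H3255 minus A549, -0.23 for H1975 minus H820, -0.52 for H1975 minus A549 and -0.29 for H820 minus A549. For CCND3 they were -0.28 for H3255 minus A549 and -0.27 for H1975 minus A549. For CDK4 they were -0.17 for H3255 minus H1975, -0.26 for H3255 minus H820 and -0.19 for H3255 minus A549. For CDKN1C they were -0.37 for H3255 minus H1975, -0.57 for H3255 minus H820 and -0.26 for H3255 minus A549. CDKN1C was below the filter within H820 (mean 0.257 FPKM) and A549 (0.0851 FPKM) and entered the fit through H3255 and H1975, so the last 2 values are not a test of those lines. With a pseudocount of 0.1 the adjusted p was 0.106 for H1975 and 0.799 for A549. These values share libraries, since each line enters 3 of the 6 pairs. Of 9 members tested, 3 were called between H3255 and H1975, where 15.2% of all 14572 genes were called. Between H3255 and H820 it was 2 (18.9% of genes) and between H3255 and A549 4 (25.2%). CDKN1C is in each of these counts. CDKN2B is among the 9, though it was listed at 0 in all 9 H3255 libraries and in 8 of 9 A549 libraries. Pairs with H3255 or A549 are therefore not a test of CDKN2B. Between H1975 and H820 it was 1 member (7.32% of genes), between H1975 and A549 2 (12.6%) and between H820 and A549 1 (0.323%).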

How the results depend on the processing

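Depth is known only in relative terms, so no counting error stands beside any value, and CCND2, with CDKN2B in H3255 and A549, lies too low to compare. The counts of called members that moved by more than 1.5 times were few. In 1 fit of all 36 libraries they were 1 for C36 minus vehicle in H1975 and 1 for MinE07 minus C36 in H820. They were also 2 for MinE07 minus vehicle in H820 and 1 for C36 minus vehicle in A549. Of the 2 in H820, 1 was CDKN2B (adjusted p = 0.0361 in limma) and the other CDKN1C. CDKN1C was below the filter within H820 and entered that fit through H3255 and H1975, so it is not a test of H820. The share of all genes called in that fit is not given here. After rescaling the counts of members were 1 for MinE07 minus vehicle in H820 (CDKN2C) and 1 for C36 minus vehicle in A549 (CCND3). Of all genes, 379 of 13753 and 872 of 13425 were called there after rescaling. For C36 minus vehicle in H820 the count was 0 with no filter, 0 without trend and robust moderation, 0 with the replicate block, and 0 to 1 without single libraries. For the difference in change between H3255 and H820 it ran from 2 to 4 without single libraries. Those counts hold CDKN1C, which was below the filter within H820. Without H820 C36 replicate 2 they also hold CDKN2B (adjusted p = 0.0288 in limma), which was listed at 0 in all 9 H3255 libraries. That pair is not a test of either gene, and the share of all genes called in those fits is not given here. Between H820 and A549 the count was 2 with the CDKN1C entries summed. The member added in that last count was CDKN1C, which was below the filter within both lines, so it is not a test of them. Called regulators in H1975 were 2 with no filter and 2 to 5 without single libraries. The replicate block gave 3 called differences between H1975 and A549 instead of 2, with CDKN2D added (adjusted p = 0.0341). It added CDKN2D between H3255 and A549 (adjusted p = 0.0229), removed CDKN1C there (adjusted p = 0.0696), and took CCND1 for C36 minus vehicle in H820 to an adjusted p of 0.0516. Same-numbered libraries correlated from -0.163 to 0.246, and 9 of 36 correlated best with their own number. The sign of 1 called value turned, CDK6 in H3255 against H1975, which was 0.0351 after rescaling. Uncalled values near 0 also turned. Among those given in the text, after rescaling these were CCND1 for C36 minus vehicle in H3255 (-0.0095) and A549 (-0.0032), and, for MinE07 minus C36 in H1975, CDK6 (-0.011) and CDKN1C (-0.0010). The CDKN2D difference between H3255 and H1975 was -0.0132 after rescaling and -0.0212 to 0.0786 without single libraries. The CDK4 vehicle difference between H820 and A549 was -0.0099 to 0.0615 without single libraries. Without H820 MinE07 replicates 1 and 2 the MinE07 minus C36 changes that turned were CDKN2C (0.0174) and CDKN2D (0.0694) in H820. Without single libraries, MinE07 minus C36 ranged from -0.0322 to 0.0847 for CDKN2C in H3255. In H1975 it ranged from -0.0155 to 0.0237 for CDK6, -0.0558 to 0.0557 for CDKN1C and -0.0158 to 0.0865 for CDKN2B. In H820 it ranged from -0.0395 to 0.0269 for CDK6 and -0.13 to 0.105 for CDKN2D. In A549 it ranged from -0.0011 to 0.07 for CDKN1B, -0.0618 to 0.0480 for CDKN2C and -0.0403 to 0.154 for CDKN2D. Further uncalled values near 0 that the text does not give also turned. The causes were not tested.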
